A study of Mus musculus with 27 samples.

Results

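PIM kinases and Tribbles pseudokinases are 2 small kinase families, and their genes were followed here in the transcription response of macrophages to lipopolysaccharide (LPS) and interleukin-4 (IL-4). The members were the rows of the deposited table with the symbols Pim1, Pim2, Pim3, Trib1, Trib2 and Trib3, 6 of 45070 genes. They were chosen by name and not by a rule on their values, though with earlier results of these data known. The cells were wild-type mouse bone marrow-derived macrophages (BMDMs), primary cells grown in culture from the marrow of young male C57/BL6 mice. All cells, untreated ones included, first spent 1 h in DMSO, the solvent that carried kinase inhibitors in other experiments of the study. They were then left untreated or given 10 ng/ml LPS, which acts through TLR4, or 10 ng/ml IL-4, for 0.5, 1, 2 or 4 h. This gave 9 groups of 3 replicates. Chromatin-associated RNA was sequenced, so the values report RNA at or near its site of synthesis and say nothing of the amount of kinase.

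PIM kinases are serine/threonine kinases that need no activating phosphorylation, so the amount made sets their activity to a large extent. Their genes are known targets of the JAK-STAT and NF-kappaB pathways, and the kinases promote survival, growth and translation. Tribbles proteins have a kinase-like fold with little or no catalytic activity and act as scaffolds. They bring substrates such as C/EBPalpha to the ubiquitin ligase COP1, and they bind AKT and MAP kinase kinases. Loss of Trib1 in mice is known to reduce macrophages of the IL-4-responsive type in tissues, and Trib3 is a target of the stress factors ATF4 and CHOP.

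Pim1 and Trib1 carried the response, and their time courses differed. Pim1 rose about 20 times within 0.5 h of LPS and stayed high to 4 h, and under IL-4 it rose about 3 times and stayed there. Trib1 also rose within 0.5 h of both stimuli but came down by 2 h. Under IL-4 its mean ended below the untreated mean, a fall that was not firm. Pim2 was low and somewhat higher under LPS, which was not firm before 4 h. Pim3 was low throughout and higher under IL-4, with every 2 h sample above every untreated and every LPS sample. Trib2 and Trib3 were close to 0 in every sample.

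**Figure D1:**
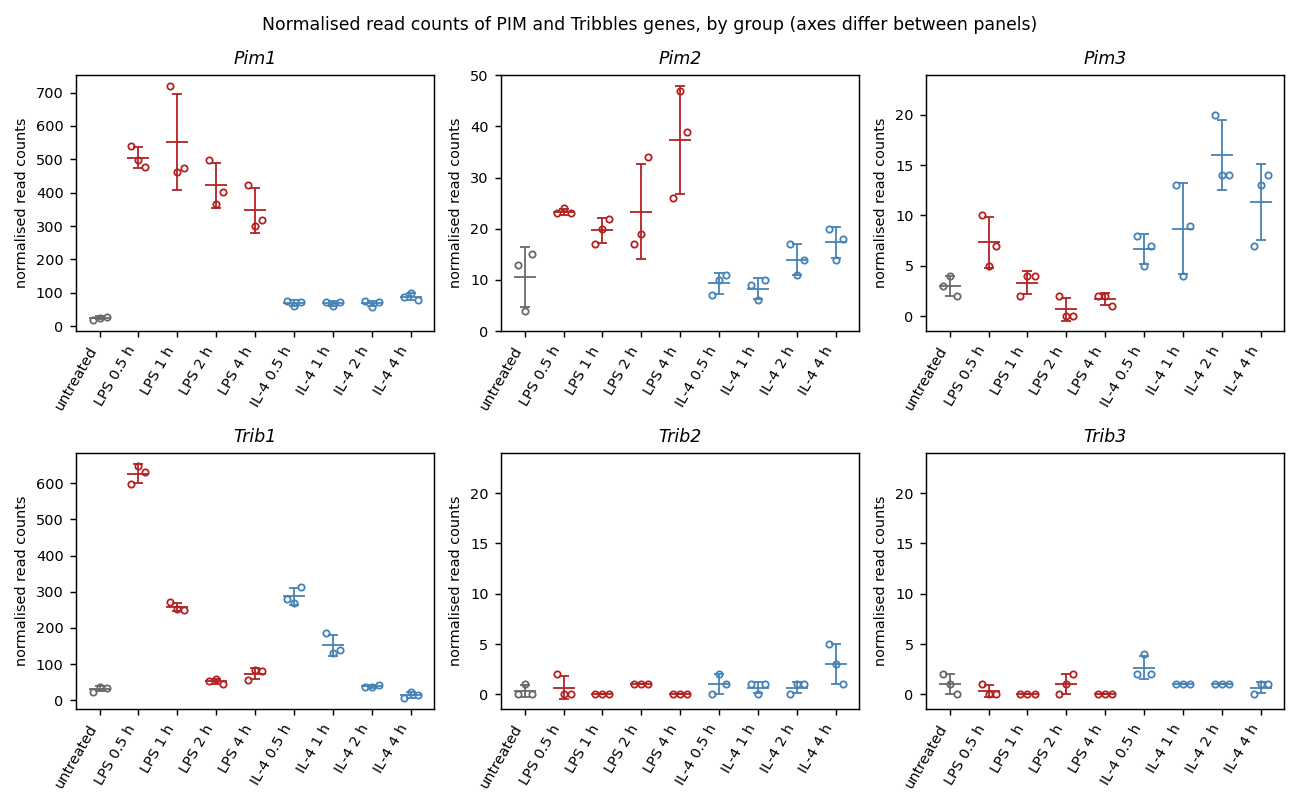
Normalised read counts (y axis, linear, with a separate range in most panels) of the 6 genes in the 9 groups (x axis), with untreated in grey, LPS in red and IL-4 in blue. Circles are the 3 replicates, horizontal marks the means and bars the SD. Pim1 stays at 300 or more in all 12 LPS samples, Trib1 falls from 597 or more to 59 or less between LPS 0.5 h and 2 h, and Trib2 and Trib3 do not exceed 5.

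The values are read counts that the authors scaled on invariant genes and rounded, called normalised read counts here, and the depth behind them is unknown. Their sums per sample were 2469768 to 2790981 in untreated and IL-4 samples and 3571492 to 4058199 in LPS samples. The median tested gene was shifted under LPS by -0.24, -0.30, -0.29 and -0.26 on the log2 scale at the 4 successive times, and by -0.02 to 0.02 under IL-4. Rises under LPS were therefore larger, by these amounts, when taken relative to the median gene. Replicate 1 stood apart from the others in every group. Among genes whose mean reached 50, replicates 2 and 3 differed by 1.61 to 5.81 times the variance of pure counting on the scale of the deposited values, and replicate 1 differed from them by 11.9 to 41.2 times. All 3 were kept as separate samples. Results that turned on a replicate are given with that replicate left out, and those that turned on counting replicates 2 and 3 separately are given with these averaged. Macrophage markers were high, with a summed level of 8819 to 16840 over 6 genes and Adgre1, which encodes F4/80, at 4051 to 12142. None of the 12 T cell, B cell and neutrophil markers was high enough to be tested, and Cd3e and Ly6g were at 0 in all samples. The 3 fibroblast markers summed to 39 to 91 in untreated, 43 to 278 in LPS and 28 to 208 in IL-4 samples. The 2 endothelial markers summed to 5 to 11, 3 to 55 and 21 to 149, with Cdh5 at 5 or less, and the 2 dendritic cell markers to 2 to 6, 5 to 96 and 10 to 22. The part of such cells in the results below was not tested. Fewer cells of a type and less RNA per cell cannot be told apart in such bulk samples.

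Of the 6 genes, 4 reached 10 normalised read counts in 3 or more samples and were tested with limma among 13901 genes. Pim3 passed this filter only through stimulated samples: 6 of its 7 samples at or over 10 were IL-4 samples and 1 was an LPS sample. It was thus admitted by the groups where it was high, and no count that includes it is read against the background. For the same reason the p-values of Pim3 under IL-4 and between the stimuli are no support beyond its values. Over the LPS course all 4 tested members passed the F test for any change, as did 87.6% of all tested genes. Over the IL-4 course Pim1 and Trib1 passed, Pim2 did not, and Pim3 brought the count to 3 of 4. The share over all tested genes was 40.3%. With replicates 2 and 3 averaged the IL-4 count was 2, since Pim3 then had an adjusted p of 0.054. Where 87.6% of all tested genes changed, as under LPS, such a count says little about the members as a set. The results therefore lie in the size, timing and direction of each gene.

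Per time point, 3 members were higher than untreated at each of the 4 LPS times, where 19.6%, 24.8%, 26.9% and 25.9% of all tested genes were higher. One member, Pim3, was lower, at 2 h, and 34.4%, 39.0%, 39.0% and 37.6% of tested genes were lower at the 4 times. Under IL-4, 2, 3, 2 and 2 members were higher, Pim3 among them from 1 h on, with 8.15%, 11.1%, 14.3% and 13.4% in the background. Only Trib1 was lower under IL-4, at 4 h, with 8.14%, 9.83%, 13.2% and 12.5% of tested genes lower at the 4 times. The counts that include Pim3 are not read against these shares.

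Pim1 is the best-known PIM kinase, first found as a site of retroviral insertion in lymphomas. Its gene lies on the plus strand at chr17:29490785-29496111 (GRCm38), spans 5327 bases and has up to 6 exons per transcript. The untreated samples held 20, 26 and 29 normalised read counts. LPS gave 540, 499 and 477 at 0.5 h, then 719, 462 and 474 at 1 h. Later samples held 498, 365 and 402 (2 h) and 424, 300 and 318 (4 h). Every LPS sample was therefore above every untreated sample by more than the whole spread of the latter. The mean was 505 ± 32.0 (SD, n = 3) at 0.5 h against 25.0 ± 4.58 in untreated cells, 20.2 times as high.

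On the log2 scale the rise of Pim1 was 4.30 (SE 0.19), 4.39, 4.03 and 3.74 over the 4 times, all with adjusted p of 1.53e-10 or less (limma). No step between neighbouring LPS times passed the test, the largest being a change of -0.37 from 1 h to 2 h (adjusted p = 0.14). From 0.5 h to 4 h, a contrast added after the values were seen, Pim1 fell by 0.55 (95% interval -0.97 to -0.14, adjusted p = 0.020). This fall had an adjusted p of 0.18 without replicate 2, 0.13 without replicate 3 and 0.14 with both averaged.

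IL-4 raised Pim1 far less. The samples held 76, 61 and 72 at 0.5 h, with 72, 61 and 72 at 1 h. Those of 2 h held 75, 58 and 71, and the last ones 88, 98 and 78. All 12 lay above the untreated samples and below all LPS samples. The log2 rise was 1.45, 1.43, 1.42 and 1.78 (SE 0.16 each), with adjusted p from 2.22e-06 to 2.20e-05. The 3 steps between IL-4 times did not pass, although the 4 h samples did not overlap those of earlier times (4 h against 2 h 0.37, 95% interval 0.03 to 0.71, adjusted p = 0.24). The order of levels for Pim1 was thus LPS, IL-4, untreated, with neighbouring times inside a stimulus not told apart.

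The window around the main annotated start of Pim1 is shown because Pim1 was the member that rose at all times under both stimuli. It runs from 250 bases before the start to 50 after it (chr17:29490535-29490834, plus strand, GRCm38.p6, from RefSeq), and capitals mark matches to the GC box, GGGCGG, on either strand.

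Pim1: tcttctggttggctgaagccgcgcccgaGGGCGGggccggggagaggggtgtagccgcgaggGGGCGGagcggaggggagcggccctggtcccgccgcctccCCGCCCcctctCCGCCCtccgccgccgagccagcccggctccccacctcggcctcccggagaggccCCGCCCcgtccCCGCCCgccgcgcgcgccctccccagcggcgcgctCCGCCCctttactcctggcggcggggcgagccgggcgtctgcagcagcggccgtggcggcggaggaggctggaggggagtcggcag

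The window is 81.3% G and C and holds 7 GC boxes, while 35.9% of 32544 RefSeq promoters of this length hold at least 1. It held no match to the other 7 motifs searched on both strands: the STAT site TTCNNNGAA (in 8.33% of promoters), its STAT6 form with a wider gap, TTCNNNNGAA (6.98%), the kappaB site (8.49%), the AP-1 site TGANTCA (7.79%), the CRE TGACGTCA (1.80%), the C/EBP-ATF site TGATGNAA (3.91%) and CCAAT (37.4%). RefSeq lists a second, internal start for Pim1, whose window (chr17:29492835-29493134) held none of the 8 motifs. These are letter matches in short windows only.

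A non-coding gene on the other strand, Gm26885 (chr17:29446838-29491544), covers the start of Pim1. Whether the authors counted by strand is not stated, so reads over the shared stretch cannot be assigned to one of them. Gm26885 held 9, 10 and 7 in untreated cells and 95, 78 and 86 at LPS 0.5 h, which is lower than Pim1 although its span is longer. It rose by 3.18 (SE 0.26), 2.45, 2.00 and 2.15 on the log2 scale over the LPS times, with adjusted p of 6.62e-06 or less. Under IL-4 it held 11 to 18 in all samples and passed the test at 1 h (0.96, adjusted p = 0.0020) and 2 h (0.80, adjusted p = 0.0057). Without replicate 3 these had adjusted p of 0.085 and 0.15.

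**Figure D2:**
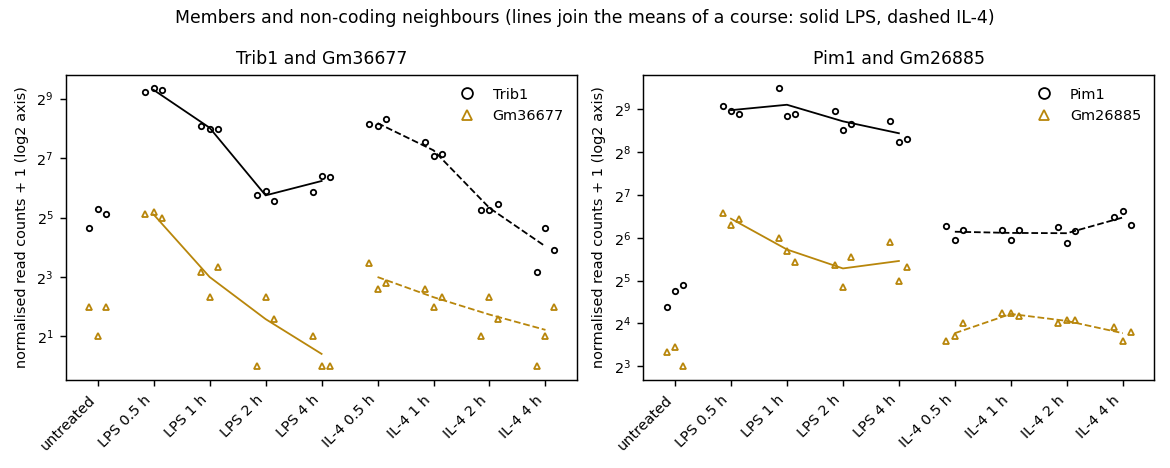
Normalised read counts plus 1 (y axis, log2 scale) in each replicate of the 9 groups (x axis) for Trib1 and the non-coding gene Gm36677 before it (left) and for Pim1 and the non-coding gene Gm26885 that overlaps its start (right). Lines join group means within a course, solid for LPS and dashed for IL-4. Trib1 and Gm36677 both have their highest values at LPS 0.5 h, 597 to 648 and 31 to 35.

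Pim2, on chromosome X (chrX:7878306-7883432, plus strand), encodes a PIM kinase best known from lymphoid cells. The untreated samples held 13, 4 and 15 normalised read counts. LPS gave 23, 24 and 23 at 0.5 h and 17, 20 and 22 at 1 h. The 2 h samples held 17, 19 and 34, and those of 4 h held 26, 47 and 39. All LPS samples were above all untreated ones, of which replicate 2 was the lowest by far.

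The log2 rise of Pim2 under LPS was 1.23 (SE 0.39), 0.99, 1.16 and 1.84, with adjusted p of 0.015, 0.038, 0.016 and 0.00070. This result was not firm: without replicate 2 the course had, in the F test, an adjusted p of 0.16, and with samples rescaled to equal totals 0.070. With replicates 2 and 3 averaged the rise did not pass at the first 3 times (adjusted p = 0.051, 0.12 and 0.064), and without replicate 3 it did not pass at 1 and 2 h. Under IL-4 Pim2 held 7, 10 and 11, then 9, 6 and 10, then 17, 11 and 14, and at 4 h 20, 14 and 18, which overlapped the untreated samples at every time. Its IL-4 course had an F test with adjusted p = 0.18, and the 4 h value was 0.81 (95% interval -0.01 to 1.63).

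Pim3 (chr15:88862194-88865726, plus strand) is the third PIM gene. The untreated samples held 3, 4 and 2 normalised read counts. LPS gave 10, 5 and 7 at 0.5 h, then 2, 4 and 4 at 1 h. Later samples held 2, 0 and 0 (2 h) and 2, 2 and 1 (4 h). The 0.5 h samples were above the untreated ones, and those of the later times were not. A mean of 3 was taken as the floor: no fold is given between 2 groups at or under it. A fold against 1 group under it is a bound computed against 3. The untreated mean of Pim3 was 3.0, the floor itself, so folds against it are ratios of means and not bounds. The LPS 0.5 h mean was 2.44 times the untreated mean and did not pass the test (adjusted p = 0.064). It passed with a pseudocount of 8 (0.013), with median-of-ratios scaling (0.041) and with all 27 samples in one fit (0.039). The lower level at 2 h passed (adjusted p = 0.011), with both groups at or under the floor, but not without replicate 2 (adjusted p = 0.19), without replicate 3 (0.090) or with both averaged (0.10).

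IL-4 gave 8, 5 and 7 for Pim3 at 0.5 h, with 13, 4 and 9 at 1 h. Those of 2 h held 20, 14 and 14, and the last ones 7, 13 and 14. At 2 h every sample was above every untreated and every LPS sample. The 1 h samples met the untreated ones at 4. The IL-4 means were 2.22, 2.89, 5.33 and 3.78 times the untreated mean of 3.0 at the 4 times. The folds fitted by limma, which depend on the pseudocount, were 1.93, 2.27, 4.29 and 3.04, with adjusted p of 0.11, 0.038, 0.00078 and 0.0060. The 1 h call was lost under 6 alternatives, such as leaving out replicate 1 (adjusted p = 0.13), and the 4 h call without replicate 3 and with replicates 2 and 3 averaged (adjusted p = 0.062). Pim3 overlaps Gm33049, a gene on the same strand, which held 2 or less in all samples.

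The promoter window of Pim3 (chr15:88861944-88862243, plus strand, GRCm38.p6, from RefSeq) is shown because Pim3, unlike Pim1, was higher under IL-4 than under LPS at 2 h. Capitals mark the kappaB site, 2 CCAAT boxes and 4 GC boxes, on either strand, and the kappaB site, whose first base lies 136 bases before the start, overlaps the first GC box.

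Pim3: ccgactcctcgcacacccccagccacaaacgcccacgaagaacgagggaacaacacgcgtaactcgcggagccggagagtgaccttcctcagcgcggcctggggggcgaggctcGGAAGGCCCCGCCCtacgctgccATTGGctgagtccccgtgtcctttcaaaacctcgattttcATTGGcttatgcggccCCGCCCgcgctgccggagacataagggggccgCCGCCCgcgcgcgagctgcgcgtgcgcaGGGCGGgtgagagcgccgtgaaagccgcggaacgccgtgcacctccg

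These too are letter matches only. In the corresponding windows Pim2 had 1 CCAAT box and 1 GC box, Trib2 had 2 GC boxes, and Trib3 had 4 GC boxes and 1 C/EBP-ATF site.

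Pim1 made up 61.8% ± 9.66 (SD, n = 3) of the PIM signal in untreated cells when values were divided by the length of each gene. The share was 93.5% ± 0.36 at LPS 0.5 h and then 95.3%, 94.3% and 89.0%. Under IL-4 it was 77.9%, 76.5%, 63.9% and 71.4%, and the share of Pim3 reached 22.6% ± 2.47 at 2 h against 11.6% ± 5.17 in untreated cells. The untreated shares rest on low values, 3, 4 and 2 for Pim3, whose mean is at the floor, and 13, 4 and 15 for Pim2. In level per kilobase of gene, untreated cells held 4.69 of Pim1, 2.08 of Pim2 and 0.849 of Pim3, and LPS 0.5 h gave 94.9, 4.55 and 2.08.

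**Figure D3:**
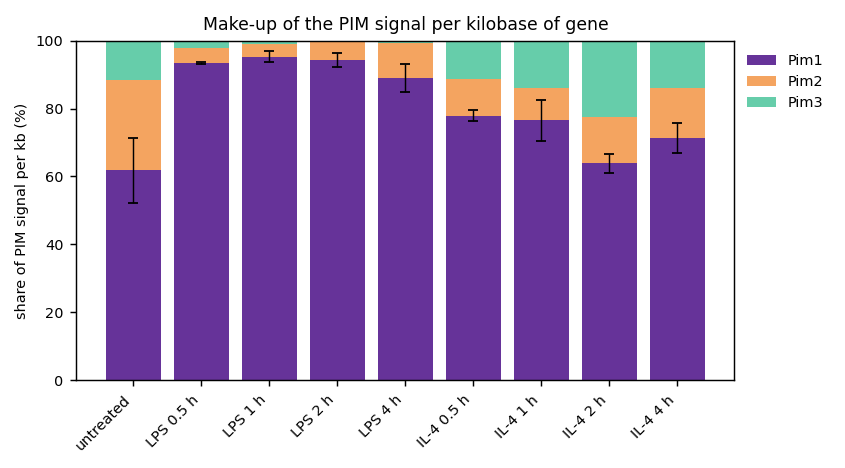
Share of Pim1, Pim2 and Pim3 in the summed PIM signal per kilobase of gene (y axis, %) in the 9 groups (x axis). Bars are means of 3 replicates, and error bars give the SD of the Pim1 share. Pim1 holds 89.0% to 95.3% at the LPS times and 63.9% to 77.9% at the IL-4 times.

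Trib1 (chr15:59648654-59657099, plus strand, 8446 bases, no annotated overlap) is the Tribbles gene best known from macrophages. The untreated samples held 24, 38 and 34 normalised read counts. LPS gave 597, 648 and 631 at 0.5 h and 272, 252 and 251 at 1 h. The 2 h samples held 53, 59 and 46, and those of 4 h held 57, 84 and 81. The 0.5 h level was 19.5 times the untreated mean, and it was down to 1.65 times at 2 h. All LPS samples stayed above all untreated ones.

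The log2 rise of Trib1 under LPS was 4.27 (SE 0.18), 3.0, 0.72 and 1.19, with adjusted p of 4.38e-11, 1.71e-09, 0.0027 and 3.41e-05. The rise at 2 h was 0.08 with samples rescaled to equal totals (adjusted p = 0.71), so at that time the call depended on the scaling. Trib1 fell by 1.27 from 0.5 h to 1 h (adjusted p = 3.45e-05) and by 2.28 from 1 h to 2 h (adjusted p = 6.94e-08). The step up from 2 h to 4 h, 0.47, had an adjusted p of 0.077, and 0.030 with replicate number as a block.

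IL-4 gave 281, 269 and 314 for Trib1 at 0.5 h, then 185, 132 and 140 at 1 h. Later samples held 37, 37 and 43 (2 h) and 8, 24 and 14 (4 h). The first 2 groups were above the untreated samples, the 2 h group lay at their upper end, and the 4 h group met them at 24. Within each replicate number the 4 h sample was below the untreated one. On the log2 scale the change was 3.15 (SE 0.29, adjusted p = 4.54e-06), 2.23 (6.62e-05), 0.30 (0.50) and -1.11 (0.011). The fall below untreated at 4 h was lost without replicate 3 (adjusted p = 0.19) and with replicates 2 and 3 averaged (adjusted p = 0.076).

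The steps of Trib1 under IL-4 all pointed down. They were -0.93 from 0.5 h to 1 h (adjusted p = 0.069, and 0.029 with the block), -1.93 to 2 h (0.00085) and -1.41 to 4 h (0.012, and 0.15 with replicates 2 and 3 averaged). From 0.5 h to 4 h Trib1 fell by 4.26 under IL-4 and by 3.08 under LPS, in a contrast added after the values were seen. In order of mean level, IL-4 0.5 h (288) and LPS 1 h (258) were neighbours whose samples overlapped, as did LPS 4 h (74.0) with LPS 2 h (52.7) and IL-4 2 h (39.0) with untreated (32.0). Per kilobase of gene Trib1 held 3.79 in untreated cells and 74.0 at LPS 0.5 h, next to the 94.9 of Pim1.

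**Figure D4:**
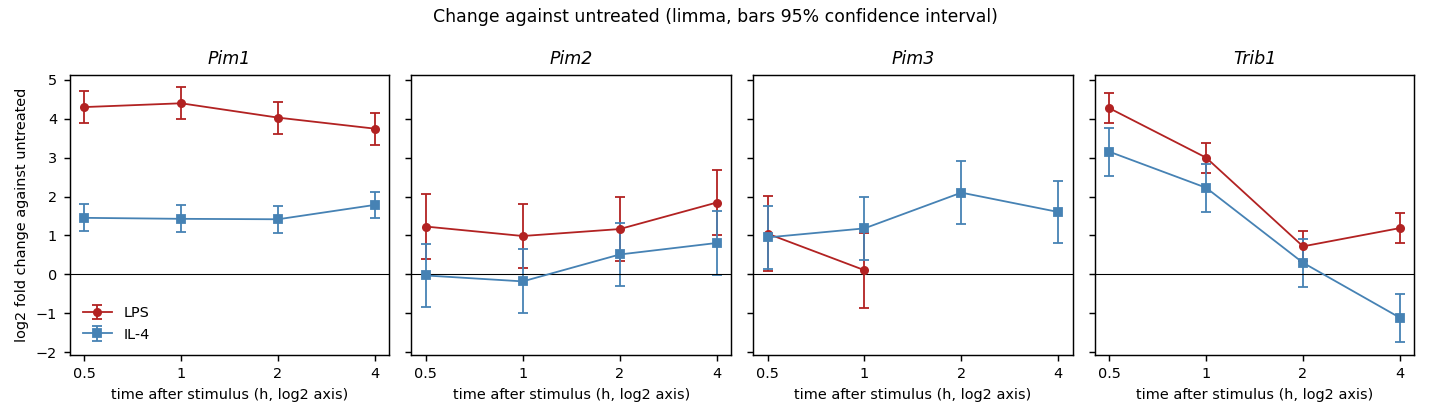
Log2 fold change against untreated (y axis) by time after the stimulus (x axis, h, log2 scale) for the 4 tested genes, with LPS in red and IL-4 in blue. Bars are 95% confidence intervals from limma, and the values of Pim3 are fitted against an untreated mean at the floor and depend on the pseudocount. Pim1 stays between 3.74 and 4.39 under LPS while Trib1 goes from 4.27 to 0.72 by 2 h, and Pim3 at LPS 2 and 4 h is left out because both groups lie at or under the floor of 3.

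Over the LPS steps, 1, 2 and 0 members passed, with 49.7%, 43.3% and 22.9% of all tested genes passing. Trib1 changed at the first step, and Trib1 and Pim3 at the second, whose count is therefore not read against its share. Pim3 fell there from 2 to 4 in the 1 h samples to 0 to 2, with an adjusted p of 0.011, and 0.17 with replicates 2 and 3 averaged. Without replicate 1 the count over the 3 LPS steps was 7 in place of 3, with Pim1 passing from 1 h to 2 h (-0.29, adjusted p = 0.038) and from 2 h to 4 h (-0.31, adjusted p = 0.041). Over the IL-4 steps 0, 1 and 1 members passed, each time Trib1, against 7.82%, 9.40% and 5.48% of all tested genes. This count of 2 was 1 without replicate 2 and 0 without replicate 3.

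The nearest tested gene before Trib1 is Gm36677, a non-coding gene on the same strand 24679 bases away (chr15:59618192-59623975), described after its values were seen. It held 3, 1 and 3 in untreated cells and 34, 35 and 31 at LPS 0.5 h, followed by 8, 4 and 9 at 1 h, 0, 4 and 2 at 2 h, with 1, 0 and 0 left at the end. Like Trib1 it was highest at LPS 0.5 h and lower from then on. At 0.5 h it was at least 11.1-fold higher against the floor of 3 (adjusted p = 6.30e-05). It had passed the filter only through its samples at 0.5 h, all 3 of LPS and 1 of IL-4. The p-value is therefore no support beyond the values. Under IL-4 it held 10, 5 and 6 at 0.5 h, all above untreated, at least 2.33-fold higher, which did not pass (adjusted p = 0.098). The nearest tested gene after Trib1, the protein-coding Lratd2, 1161897 bases away, went from a mean of 36.3 in untreated cells to 3.33 at LPS 0.5 h.

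Trib2, on chromosome 12, held 0 to 5 normalised read counts, with 13 of 27 samples at 0 and a sum of 22 over all samples. Its highest samples were 5, 3 and 1 at IL-4 4 h. Trib3, on chromosome 2, held 0 to 4, with 11 samples at 0 and a sum of 23, and its highest samples were 2, 4 and 2 at IL-4 0.5 h. No group mean of either gene was above the floor of 3, so no fold is given, and neither gene passed the filter for the test. Trib1 made up 87.9% to 100% of the Tribbles signal per kilobase in the 9 groups.

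LPS and IL-4 were then compared directly at each time in 1 fit of all 27 samples. At the successive times 3, 4, 2 and 4 of the 4 tested members differed, Pim3 among them from 1 h on. The shares over all tested genes were 53.8%, 64.5%, 68.6% and 68.0%, and counts that include Pim3 are not read against them. The 1 h count was 2 with equal totals and 2 without replicate 3, and the 2 h count was 4 with median-of-ratios scaling.

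Pim1 was higher under LPS by 2.85 (SE 0.18), 2.97, 2.61 and 1.96 on the log2 scale at the 4 times, with adjusted p of 7.34e-10 or less. Trib1 was higher under LPS by 1.12 (adjusted p = 0.00040), 0.77 (0.0074) and 2.30 (1.05e-08) at 0.5, 1 and 4 h. At 2 h the difference was 0.42 (95% interval -0.08 to 0.92), and it turned to -0.20 with equal totals. The 1 h difference of Trib1 was lost with equal totals (adjusted p = 0.28), without replicate 3 and with replicates 2 and 3 averaged (adjusted p = 0.068). Pim2 was higher under LPS by 1.26 (adjusted p = 0.0038), 1.17 (0.0053) and 1.04 (0.011) at the first, second and last times, and the last 2 were lost with equal totals. The last was also lost without replicate 2 and without replicate 3.

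Of the tested members, Pim3 alone was higher under IL-4. It had passed the filter mainly through that stimulus, so its p-values here are no support beyond its values. The 0.5 h difference was 0.10 (95% interval -0.79 to 0.98), which turned to -0.24 with equal totals. At 1 h it was -1.07 (adjusted p = 0.031, and 0.31 without replicate 1). At 2 h it held 0 to 2 under LPS and 14 to 20 under IL-4, at least 5.33-fold higher under IL-4 against the floor (adjusted p = 1.04e-07). At 4 h it held 1 to 2 and 7 to 14, at least 3.78-fold higher (adjusted p = 8.92e-05).

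The genes most like each tested member were taken by the correlation of the 9 group means with 7566 other genes, as a description over means that share the untreated group. For Pim1 they were Sdc4 (r = 0.990), Clic4 (0.985) and Cdc42ep2 (0.983). Sdc4, a cell surface proteoglycan, went from a mean of 115 in untreated cells to 9332 at LPS 0.5 h and 2802 at 4 h. For Trib1 they were Tgm2 (0.956), Vcl (0.950) and Ero1a (0.928). Tgm2, a transglutaminase widely used as a marker of IL-4-treated macrophages, had means of 86.0 in untreated cells, 1556 at LPS 0.5 h and 135 at 4 h, and of 405 at IL-4 0.5 h and 67.7 at 4 h. For Pim2 the genes were Surf4 (0.985), Dld (0.960) and Gm38469 (0.949), and for Pim3 Dmxl1 (0.965), Tbxas1 (0.960) and Foxn3 (0.958). Tbxas1, thromboxane synthase, had means of 2661 in untreated cells, 480 at LPS 2 h and 8319 at IL-4 2 h. Between members r was 0.817 for Pim1 and Pim2, 0.472 for Pim1 and Trib1, and -0.452 for Pim1 and Pim3. All r values of Pim3 rest on low group means, 0.667 to 16.0. Its means in untreated cells and at LPS 2 h and 4 h lie at or under the floor of 3.

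Receptors and transcription factors upstream of the PIM genes were all tested. Of 14 genes, 14 changed during LPS, where 87.6% of all tested genes did, and 9 during IL-4, where 40.3% did. At LPS 4 h 12 were higher and 2 lower (25.9% and 37.6% over all tested genes), with a median of 2.39 against -0.26 over all tested genes. Jak2, a cytokine receptor kinase, rose most under LPS, from 161 ± 20.0 to 5839 ± 429 (SD, n = 3) at 2 h (5.18, adjusted p = 8.75e-13). Stat5a rose from 84.7 to 2545 at 2 h and Nfkb1, the NF-kappaB precursor p105, from 791 to 13244 at 1 h. Under IL-4, 5, 5, 4 and 4 of the 14 were higher at the 4 times, beside 8.15%, 11.1%, 14.3% and 13.4% of all tested genes. Those lower were 2, 1, 1 and 2, beside 8.14%, 9.83%, 13.2% and 12.5%, and the median was -0.03, 0.03, 0.07 and 0.19. Jak2 again rose most, to 598 ± 80.2 at 1 h (1.89, adjusted p = 1.14e-06), followed by Rel at 0.5 h (1.78) and Il4ra, the IL-4 receptor chain, at 2 h (1.69).

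PIM substrates moved in both directions, as tested genes did at large. Of 16 genes, 14 changed over LPS, a share like the 87.6% of all tested genes. Over the 4 LPS times 4, 5, 2 and 4 were higher, beside 19.6%, 24.8%, 26.9% and 25.9% of all tested genes. At these times 6, 8, 6 and 9 were lower, beside 34.4%, 39.0%, 39.0% and 37.6%. Over IL-4 9 changed, beside 40.3% of all tested genes. At the 4 IL-4 times 3, 3, 4 and 3 were higher, beside 8.15%, 11.1%, 14.3% and 13.4%. Those lower were 5, 3, 4 and 3, beside 8.14%, 9.83%, 13.2% and 12.5%. Socs1, an inhibitor of JAK signalling, held 0 to 2 in untreated cells and 155 to 159 at LPS 2 h and 130 to 257 at IL-4 2 h, at least 52.1-fold and at least 65.4-fold higher against a floor of 3 for the group mean. Cxcr4, a chemokine receptor, held 53 to 90 in untreated cells and 0 to 1 at LPS 4 h, at least 23.9-fold lower, and 12 to 23 at IL-4 2 h (-2.16, adjusted p = 0.00020). Foxo3 fell under LPS from 1164 to 52.3 at 2 h, and Myc rose under IL-4 from 9.67 to 141 at 0.5 h (3.79, adjusted p = 5.75e-07).

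Of the partners and clients of Tribbles proteins, 12 of 12 changed over the LPS course, beside 87.6% of all tested genes. At the 4 LPS times 3, 5, 4 and 4 were higher, beside 19.6%, 24.8%, 26.9% and 25.9% of all tested genes. Those lower were 6, 3, 5 and 4, beside 34.4%, 39.0%, 39.0% and 37.6%. The median of the 12 was -0.26, 0.11, 0.14 and -0.21, against -0.24, -0.30, -0.29 and -0.26 over all tested genes. Map2k4 rose from 488 to 2700 at 2 h (2.46), Map2k1 from 228 to 1232 at 2 h (2.43), and Cop1, the ligase itself, from 1484 to 7414 at 1 h (2.30). Under IL-4 5 of 12 changed, beside 40.3% of all tested genes, none by more than 0.63, the value of Acaca at 2 h. Akt1 was lower at 0.5 h (-0.58) and Cul4a higher at 2 h (0.56), and both calls were lost without replicate 2 (adjusted p = 0.070 and 0.071).

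Of 16 stress response genes around Trib3, 11 were tested and 11 changed over LPS, beside 87.6% of all tested genes. At the 4 LPS times 5, 5, 5 and 5 were higher, beside 19.6%, 24.8%, 26.9% and 25.9% of all tested genes. Those lower were 4, 5, 5 and 5, beside 34.4%, 39.0%, 39.0% and 37.6%. Slc7a11, a cystine transporter, rose from 1 to 8 in untreated cells to 1288 to 1791 at 1 h, Ppp1r15a from 7.67 to 405 at 0.5 h (5.64), and Nupr1 from 2.33 to 135 at 2 h. Over IL-4 6 of 11 changed, beside 40.3% of all tested genes. At the 4 IL-4 times 1, 0, 2 and 1 were higher, beside 8.15%, 11.1%, 14.3% and 13.4%. Those lower were 2, 1, 0 and 0, beside 8.14%, 9.83%, 13.2% and 12.5%. Atf3 was higher at 0.5 h (1.11, adjusted p = 0.029, and 0.16 without replicate 2) and Eif2ak3 lower at 0.5 h (-0.45, adjusted p = 0.0028, and 0.13 without replicate 3). Ddit3, which encodes CHOP, held 86 to 130 at IL-4 4 h against 73 to 82 (0.40, adjusted p = 0.054, and 0.034 with the block).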

How the data were processed

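Chromatin-associated RNA of BMDMs was sequenced by the authors (Smart-seq2 with random primers, single-end). The authors aligned reads to mm10 with TopHat2 2.1.1, processed them with bedtools 2.29.2, counted them per gene over GRCm38.p6 and scaled the libraries on invariant genes. The deposited values are whole numbers of such scaled counts and were treated as a score, not as raw counts. The raw depth is unknown, so no counting interval is given. Whether counting used strand is not given in the sources used here.

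Genes with at least 10 in at least 3 of 27 samples entered limma 3.58.1 (R 4.3.3) as log2(value + 1) (trend, Benjamini-Hochberg over 13901 genes, threshold 0.05, two-sided), after tests on simulated data. This scale understates the change of low genes. Each course was fitted on its own with the untreated samples, and the stimuli were compared over all samples. The impulse model of the study was not run. Nothing says that replicates came from separate animals, so p-values measure the spread between these samples, which may be technical. Same-numbered samples deviated together: the lowest correlation of their deviations between groups was 0.351 for number 1, 0.202 for number 3 and 0.09 for number 2, where 34 of 36 pairs passed 0.1. Both exceptions involve LPS 4 h. Among 216 pairs with different numbers 70 also passed 0.1, the highest at 0.39. Passing 0.1 therefore does not by itself show that the numbers paired the samples. Values with the number as a block are given where they change a call.

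The members and gene lists were chosen with earlier results of these data known. Named genes are all members and, per list and stimulus, the 3 genes of largest change at any time that passed the F test and had a mean of at least 50 in the higher group. For the genes most like a member, the 3 protein-coding genes with the highest r were taken. Non-coding neighbours were named after their values were seen. Promoter windows come from RefSeq (250 bases before to 50 after the start), and 5 of the 6 members were matched to one.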

Additional observations from a re-analysis of the deposited data

Results flagged for a closer look

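Pim3 differed between the stimuli at 2 h, with changes of opposite sign against untreated. It was below the untreated level under LPS (adjusted p = 0.011) and above it under IL-4 (adjusted p = 0.00078), and LPS minus IL-4 had a fitted value of -3.54 on the log2 scale (limma, adjusted p = 1.04e-07). The fitted value depends on the pseudocount, and against the floor of 3 the level was at least 5.33-fold higher under IL-4. The samples held 2, 0 and 0 under LPS, 20, 14 and 14 under IL-4, and 3, 4 and 2 in untreated cells, so the LPS and untreated samples met at 2. The fall under LPS was lost without replicate 2 (adjusted p = 0.19), without replicate 3 (0.090) and with both averaged (0.10), so a difference in direction is not firm. Pim3 also passed the filter mainly through IL-4 samples, so these p-values are no support beyond the values.

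Trib1 differed in direction between the stimuli at 4 h, with 1.19 under LPS (adjusted p = 3.41e-05) and -1.11 under IL-4 (adjusted p = 0.011). LPS minus IL-4 was 2.30 (limma, adjusted p = 1.05e-08), with 57, 84 and 81 under LPS and 8, 24 and 14 under IL-4, higher under LPS in all 3 replicates. The fall under IL-4 was lost without replicate 3 (adjusted p = 0.19) and with replicates 2 and 3 averaged (0.076). Its samples met the untreated ones at 24, so a difference in direction is not firm.

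Trib1 also differed in direction between early and late IL-4, from 3.15 at 0.5 h to -1.11 at 4 h, and 4 h minus 0.5 h was -4.26 (limma, adjusted p = 3.09e-07). The late fall alone was not called without replicate 3 (adjusted p = 0.19) or with replicates 2 and 3 averaged (0.076), so the fall below untreated is not firm. Groups held 3 samples, so no sample was tested as an outlier.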

How the results depend on the processing

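The counts of members were recomputed under 11 alternatives, of which averaging replicates 2 and 3 was chosen after seeing the data. A filter at a mean of 50 left only Pim1 and Trib1, and by that construction gave 2 for the LPS course, 2, 1 and 2 for LPS against IL-4 at 1, 2 and 4 h. Equal totals gave 2 at 1 h and median-of-ratios scaling 4 at 2 h. Leaving out 1 replicate gave 3 to 4 members for the LPS course, 2 to 3 for IL-4, 3, 2 to 4, 2 to 3 and 3 to 4 for LPS against IL-4, 2 to 7 for LPS steps and 0 to 3 for IL-4 steps. With the replicate block the courses gave 4 and 3, the steps 4 and 3, and the comparisons of stimuli 3, 4, 2 and 4, and among the members' calls the block changed only the 2 steps of Trib1 given above and Pim2 from IL-4 0.5 h to 4 h (0.83, adjusted p = 0.13, and 0.049 with the block). Averaging replicates 2 and 3 gave 1 IL-4 step. The cause of these changes was not tested.

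Of 824 values of members under alternatives, 742 kept direction and call, 49 lost a call, 20 gained one and 13 changed sign, none of the 13 called. With equal totals the signs changed for Pim3 at LPS 1 h (-0.328), Pim3 between stimuli at 0.5 h (-0.238), Trib1 between stimuli at 2 h (-0.198) and Pim1 from IL-4 1 h to 2 h (0.0642). With replicates 2 and 3 averaged they changed for Pim1 at that step (0.0074) and Pim3 at LPS 1 h (-0.0466). Leaving out a replicate gave ranges that crossed 0 for Pim1 from LPS 0.5 h to 1 h (-0.06 to 0.202), Pim1 from IL-4 1 h to 2 h (-0.0457 to 0.0191), Pim2 at IL-4 0.5 h (-0.611 to 0.361), Pim2 from LPS 1 h to 2 h (-0.0352 to 0.303), Pim2 from IL-4 0.5 h to 1 h (-0.389 to 0.0982) and Pim3 at LPS 1 h (-0.208 to 0.369). With no filter Trib2 and Trib3 entered the test, and LPS against IL-4 passed for Trib3 at 0.5 h (adjusted p = 0.0050) and Trib2 at 4 h (adjusted p = 0.0017), with all group means at or under 3.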
